A study of Mus musculus with 2 samples.

Results

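Spinous keratinocytes, the cells of the living layers between the base and the granular layer of the epidermis, were taken from single-cell RNA sequencing of mouse dorsal skin. A barcode with 200 to 8000 genes and at most 10% mitochondrial unique molecular identifiers (UMIs) was counted as spinous where Krt1 and Krt10 together made up at least 100 of every 10000 UMIs, where the granular genes Flg, Flg2, Hrnr and Cdsn together stayed below 10 per 10000, and where no UMI of the follicle keratin Krt79 was present. This rule found 2667 spinous cells among 42244 cells in the control library (Con) and 3785 among 20045 in the testosterone propionate library (TP), 6452 of 62289 cells in all. Both libraries came from the shaved back skin of male C3H/HeN mice, 7 weeks old at the start and 9 weeks old at collection. TP mice received testosterone propionate under the skin at 0.5 mg per day as a model of androgenetic alopecia, and Con mice received vehicle. Each library was a single pool of 15 mice, so no comparison has a replicate check, no test was run, and every interval below covers counting error at 95% only. Mice given TP with a CXCL12-neutralizing antibody were not analysed here.

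When a basal keratinocyte leaves the basement membrane it stops making Krt5 and Krt14 and turns on Krt1 and Krt10, the keratin pair that fills spinous cells and ties into their many desmosomes. Spinous cells then prepare the cornified envelope and the barrier lipids that granular cells complete. Krt6a, Krt6b and Krt16 are scarce in resting epidermis between follicles and are known from wounded or hyperproliferative epidermis, where ligands of the epidermal growth factor (EGF) receptor and factors of the AP-1 family are also induced.

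The libraries differed in depth and purity, and both differences reach into the spinous cells. Con had 45709 barcodes with a median of 2162 UMIs in cells within the limits, and TP had 25931 barcodes with a median of 5166. Of the barcodes, 7.58% in Con and 22.6% in TP exceeded the mitochondrial limit. Spinous cells had medians of 4297 UMIs and 2043 genes in Con and 7623 UMIs and 2832 genes in TP, and summed to 15206548 and 37310340 UMIs. Hair keratin and keratin-associated protein genes, which spinous cells should lack, stood at a median of 16.3 per 10000 UMIs in Con spinous cells and 3.80 in TP, which corresponds to 29.5% and 18.8% of the UMIs if they came from a free RNA background with the library's own composition. A total of 303 barcodes occurred in both libraries, 2 of them as spinous cells in both. Doublets were not removed, and an artificial-doublet score that marks 7.5% of each library marked 10.2% of Con and 9.46% of TP spinous cells.

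Promoter sequences are shown for 6 genes on which the results turn. A pair of small proline-rich genes higher in TP can thus be set beside the keratins and the metallothionein that mark the cells. Of these markers Krt2 was also at least 2-fold higher in TP. Each run gives the 250 bases before the RefSeq gene start in GRCm38.p6, read 5′ to 3′ on the gene's strand. Capitals mark every match on either strand to a pair of motifs. The first is TGANTCA, the site bound by AP-1. The second is TATANA, from the core promoter box of that name, whose matches run into each other in Krt10, Krt77 and Sprr1b and nowhere meet the first motif in the sequences shown. The windows are chr3:92438780-92439029 for Sprr1b, chr3:92485882-92486131 for Sprr1a, chr11:99389365-99389614 for Krt10, chr15:101869706-101869955 for Krt77 and chr15:101818170-101818419 for Krt2, all on the minus strand, and chr8:94136954-94137203 for Mt4 on the plus strand.
Sprr1b: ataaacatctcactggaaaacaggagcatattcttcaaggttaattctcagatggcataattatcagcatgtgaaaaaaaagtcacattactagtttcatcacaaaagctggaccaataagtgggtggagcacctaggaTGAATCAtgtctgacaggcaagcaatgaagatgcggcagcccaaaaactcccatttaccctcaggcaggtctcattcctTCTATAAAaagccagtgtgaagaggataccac
Sprr1a: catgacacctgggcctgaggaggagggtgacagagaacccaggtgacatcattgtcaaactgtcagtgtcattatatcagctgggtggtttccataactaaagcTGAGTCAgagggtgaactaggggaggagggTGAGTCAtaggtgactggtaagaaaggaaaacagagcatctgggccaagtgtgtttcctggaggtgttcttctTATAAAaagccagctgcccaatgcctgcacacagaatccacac
Krt10: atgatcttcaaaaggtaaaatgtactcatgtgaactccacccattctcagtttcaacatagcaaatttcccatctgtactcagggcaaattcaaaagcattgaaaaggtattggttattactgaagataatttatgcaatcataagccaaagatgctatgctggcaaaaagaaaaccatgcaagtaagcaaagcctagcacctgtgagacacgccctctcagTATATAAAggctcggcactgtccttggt
Krt77: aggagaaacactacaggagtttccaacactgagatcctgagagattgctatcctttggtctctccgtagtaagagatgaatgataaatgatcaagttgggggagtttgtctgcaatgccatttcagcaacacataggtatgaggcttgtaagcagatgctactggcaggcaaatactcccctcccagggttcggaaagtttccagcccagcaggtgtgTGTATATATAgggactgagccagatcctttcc
Krt2: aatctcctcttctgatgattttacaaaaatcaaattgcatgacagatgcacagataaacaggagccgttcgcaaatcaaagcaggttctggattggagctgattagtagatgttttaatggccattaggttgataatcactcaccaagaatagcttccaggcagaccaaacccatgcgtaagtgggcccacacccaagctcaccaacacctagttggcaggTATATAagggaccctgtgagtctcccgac
Mt4: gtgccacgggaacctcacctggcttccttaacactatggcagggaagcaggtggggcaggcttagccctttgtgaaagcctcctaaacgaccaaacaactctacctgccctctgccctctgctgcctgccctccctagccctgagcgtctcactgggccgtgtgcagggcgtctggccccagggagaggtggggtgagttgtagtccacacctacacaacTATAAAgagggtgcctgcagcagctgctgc
TGANTCA occurred once in the window of Sprr1b, 111 bases before the start, and at 146 and 116 bases before the start of Sprr1a. It was not in these windows of Krt10, Krt77, Krt2 or Mt4, nor in those of Areg and Cstdc5. Krt2, Areg and Cstdc5 were at least 2-fold higher in TP as well, so the motif did not separate higher genes from the others. Of 32851 RefSeq windows of the same length, 6.75% held TGANTCA and 22.6% held TATANA. The TATA matches of the 6 sequences began 26 to 43 bases before the start. Of 15 genes looked for, 8 were in the table, and Krt1, Krt6a, Krt6b, Krt16, Krt17, Fosl1 and Ereg were not.

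The markers of the label were present in the cells the rule chose. Krt1 stood at 6343 counts per 1000000 UMIs (CPM) in Con spinous cells and 10090 in TP, and Krt10 at 14270 and 20850. Both genes chose the cells, so their levels are a description. Krt2, a keratin of the upper spinous and granular layers, was at 37.1 and 171 CPM, and Mt4, a metallothionein of stratified epithelium, at 1678 and 1370. Krt77, a partner keratin of suprabasal cells, reached 4116 CPM in Con and 5662 in TP. Summed over the class, the basal keratin Krt14 was at 1621 and 1731 CPM and Krt5 at 1054 and 870. These keratins were spread unevenly among members. The 25th and 75th percentiles of Krt5 and Krt14 together were 1.27 and 27.2 per 10000 UMIs in Con members and 2.66 and 25.9 in TP. They reached 50 per 10000 in 14.81% of Con and 15.35% of TP members. The sums therefore do not show that the typical member kept basal keratins. In cells with Krt5 and Krt14 high and Krt1 and Krt10 low, the levels of Krt14 were 9835 and 13070 CPM.

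The limit of 100 per 10000 cut through a continuous range. In the range from 90 to 100 just outside it lay 227 Con and 167 TP cells, with Krt77 at 1749 and 1580 CPM and Mt4 at 853 and 610. In the range from 100 to 110 just inside lay 185 and 135 cells, with Krt77 at 1973 and 2115 CPM and Mt4 at 1074 and 548. Krt1 and Krt10 together made up 10.4 per 10000 UMIs in Con cells rich in Krt71, a keratin of the inner root sheath, and 20.9 in those of TP. Those cells were taken from outside the limit, so these values say nothing of free RNA in cells over it.

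The 20 genes with the highest level in spinous cells over all other cells, taking the lower ratio of both libraries, are a description of the class. Apart from Krt2, Mt4 and Krt16, they held the desmosomal cadherin Dsg1b, the serpins Serpinb3b and Serpinb3c, the cytokine Il34, which maintains Langerhans cells, the prostaglandin D synthase Hpgds, the chloride channel accessory genes Clca2 and Clca3a2, the phospholipase Pla2g4f and the chemokine receptor Ccr4. Il34 was at 159 CPM in Con spinous cells against 25.5 in the other cells, and at 145 against 48.8 in TP. Clca3a2 was at 1239 CPM in Con and 967 in TP. In 18 of the 20 genes the ratio of TP over Con stayed within 2-fold, with Krt2 and Krt16 the exceptions, and Gadl1, an amino acid decarboxylase, stood at 58.8 and 117 CPM just under that limit. Of all 10382 genes tested 1.08% were at least 2-fold higher and 2.97% at least 2-fold lower, so the count of 18 is no sign of stability.

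Spinous cells made up 6.31% of Con cells (6.08 to 6.55%) and 18.9% of TP cells (18.3 to 19.4%), a ratio of 2.99 (2.85 to 3.13). The ratio grew with the limit on Krt1 and Krt10, to 5.05 at 200 per 10000 and 16.3 at 400 per 10000. Against other epidermal cells it gave no single direction. Per cell with Krt5 and Krt14 high the TP library held 0.899 times as many spinous cells as Con (0.821 to 0.985), but 1.52 times as many at 200 per 10000, 4.89 at 400 and 1.10 where the Krt79 condition was dropped. Of the cells with Krt1 and Krt10 over the limit 85.4% were spinous in Con and 65.1% in TP, a ratio of 0.762. This ratio was 0.881 with each cell thinned to 1000 UMIs before the rule and 0.918 among cells of 2000 to 6000 UMIs. Without the Krt79 condition it was 0.934, so it moved with depth and with that condition. Krt79-positive cells over the limit had medians of 6306 UMIs in Con and 13944 in TP. The granular limit removed 207 of 3122 such cells in Con and 745 of 5818 in TP. The Krt79 condition removed a further 248 and 1288, of which 194 and 943 had a single Krt79 UMI. Whether the larger TP share reflects more spinous cells or other cells lost from the pool cannot be told apart in shares.

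Krt1 and Krt10 chose the members, so their spread among them is a description. The median of both genes together was 184 per 10000 UMIs in Con and 270 in TP, and 3.71% and 20.2% of members reached 400. The free RNA shares given above also differed between the libraries, and their part in this was not tested. Within each library the members ordered along this range in the same way. From the lowest range (100 to 200) to the highest (400 or more), Krt14 went from 2073 to 434 CPM in Con and from 3126 to 716 in TP, and Krt15, another basal keratin, from 857 to 174 and from 626 to 110. Krt77 climbed from 3126 to 7133 CPM in Con and from 3304 to 7292 in TP. Krtdap, a small secreted protein of suprabasal cells, climbed from 7515 to 12810 and from 6295 to 13000, so at matched Krt1 and Krt10 the libraries differed little in Krt77 and Krtdap. Mt4 also climbed along the range in both libraries but was lower in TP in each of the 4 ranges, 1442 against 962 CPM in the lowest and 2536 against 1633 in the highest.

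**Figure D1:**
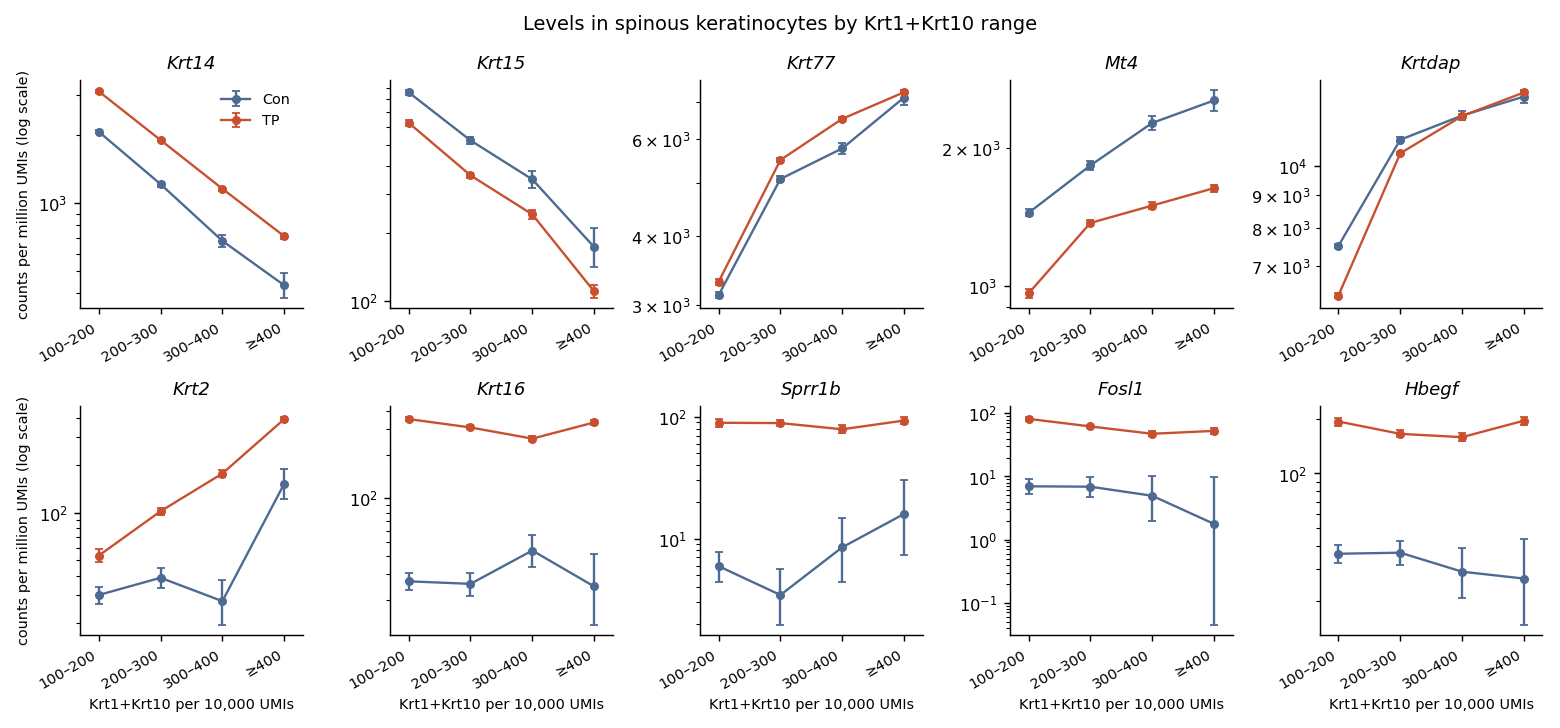
Levels of 10 genes in spinous cells grouped by Krt1 and Krt10 per 10000 UMIs (x axis, 4 ranges), in CPM on a log axis, for Con (blue) and TP (red), 1 library each, with exact Poisson intervals at 95%. Krt14 and Krt15 fall and Krt77 and Krtdap climb in both libraries, while Krt16, Sprr1b, Fosl1 and Hbegf are higher in TP in all 4 ranges.

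Of 10382 genes whose UMIs summed over both libraries reached 200, 112 (1.08%) were at least 2-fold higher in TP spinous cells and 308 (2.97%) at least 2-fold lower. The median gene had a log2 ratio of -0.13 and 33.2% of genes were above 0, so changes below are read against a slightly negative centre. With so few genes past 2-fold in all, a short list with none past it is no sign of stability. Scaling by the trimmed mean of M-values (TMM) added 0.19 to each log2 ratio and gave 169 genes higher and 187 lower, which moves the share of higher genes among those called from 26.7% to 47.5%. With the Con proportions of the 4 Krt1 and Krt10 ranges applied to both libraries the counts were 145 and 73, a share of 66.5%, and with the free RNA profile subtracted they were 179 and 69, a share of 72.2%. The count of lower genes thus varied more with these choices than that of higher genes, and the higher genes are described first. The sets changed as well. With the free RNA profile subtracted, 61 of the 179 higher and 22 of the 69 lower genes were among those first called. Of the 112 higher genes, 78 kept at least 200 UMIs there. With the Con proportions 99 of the 145 and 71 of the 73 were among those first called.

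**Figure D2:**
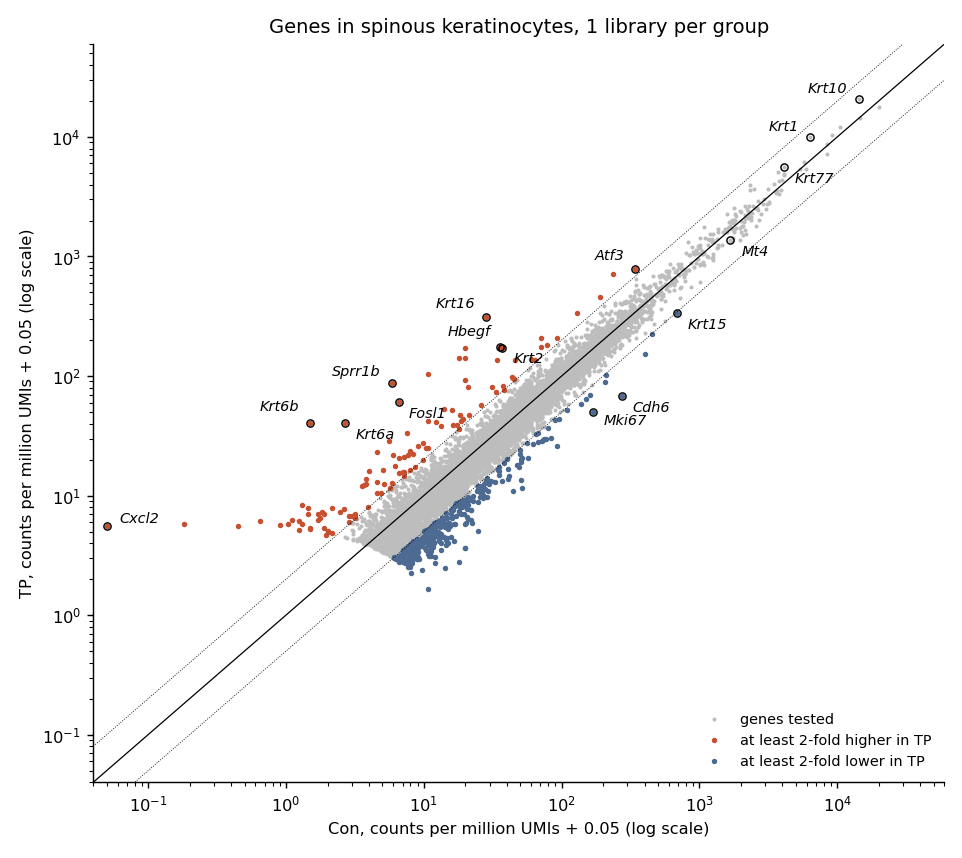
Level of each of 10382 genes in Con spinous cells (x axis) and TP spinous cells (y axis), in CPM plus 0.05, both log axes. Points in red are at least 2-fold higher and points in blue at least 2-fold lower in TP, and dotted lines mark 2-fold. Krt6a, Krt6b, Krt16, Sprr1b and Fosl1 lie above the upper dotted line, Krt10 and Krt77 between the lines, and Cxcl2, with no UMI in Con, at the left edge.

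The keratins of wounded epidermis were among the 15 largest rises. Krt16 (chr11:100246091-100248902) had 427 UMIs in Con spinous cells, or 28.1 CPM, and 11581 in TP, or 310 CPM, a ratio of 11.1 (10.0 to 12.2). Krt6a (chr15:101689928-101694305) went from 40 to 1519 UMIs, a ratio of 15.5 (11.3 to 21.7), and Krt6b (chr15:101676023-101680293) from 22 to 1497, a ratio of 27.7 (18.2 to 44.4). The Con UMIs of Krt6b came from 7 cells and those of TP from 160. In Con the top 10 cells held 56.2% of the Krt16 UMIs and 52.5% of the Krt6a UMIs. The intervals of all these keratins treat UMIs as independent, so they are too narrow. The log2 ratio of Krt6b, 4.73, was 2.51 among cells of 2000 to 6000 UMIs and 3.59 with each cell weighted alike. Krt6a and Krt6b are near-identical neighbours, so the split of reads between them is uncertain. Krt17, a follicle and stress keratin, was at 60.3 and 137 CPM, but it was 0.260 and 0.199 times the level of the other cells. Its log2 ratio of 1.19 was 0.38 among cells of 2000 to 6000 UMIs and 0.84 after thinning, short of 2-fold. Of 15 keratins with enough UMIs, 5 were at least 2-fold higher (Krt2, Krt6a, Krt6b, Krt16 and Krt17) and 1 was lower (Krt15), with a median log2 ratio of 0.46. It was 0.14 with the Krt1 and Krt10 ranges given the Con proportions in both libraries, 0.17 with the free RNA profile subtracted and 0.15 at a limit of 400 per 10000.

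These keratins were carried by a minority of TP spinous cells. After each cell was thinned to 1000 UMIs, which left out 135 Con and 248 TP members, 1.54% of Con and 11.3% of TP spinous cells had a UMI of Krt6a, Krt6b or Krt16. Unthinned, the shares were 4.54% and 32.3%. Krt71-high cells, at median depths of 2081 and 6566 UMIs, gave 0.512% and 2.92% after thinning. Cells rich in the collagen gene Col1a1, at 3047 and 7517 UMIs, gave 0 of 121 in Con, where a limit of 3 cells allows a share of up to 2.48%, and 3.27% in TP. Neither class should make these keratins, so the thinned TP spinous share stood above its background as seen in them. Unthinned, TP Krt71-high cells gave 23.2% and TP Col1a1-high cells 18.2%, so the 32.3% of spinous cells is not read as the share that makes them. The doublet score marked 3.01% of Con and 26.4% of TP Col1a1-high cells, and 3.08% of Con and 0% of TP Krt71-high cells. In TP the 5% of spinous cells with the most Krt16 UMIs held 84.4% of them, and for Sprr1b the figure was 83.8%.

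The small proline-rich genes were found more often in the cells with these keratins. Among 401 thinned TP spinous cells with a UMI of Krt6a, Krt6b or Krt16, 19.9% (16.2 to 24.2%) had Sprr1b and 21.9% (18.0 to 26.3%) had Sprr1a. Of the 3136 cells lacking them, Sprr1b was in 2.68% (2.14 to 3.31%) and Sprr1a in 3.89% (3.24 to 4.63%). Fosl1 was found in 10.97% and 4.56% and Hbegf in 17.2% and 11.7%. Krt14 was more frequent there too, 57.9% against 42.4%, and Mt4 less frequent, 49.6% against 62.1%, whereas Krt77 was at 84.3% and 87.4%. Krt17 was in 15.96% (12.5 to 19.9%) of the cells with these keratins and 6.03% (5.22 to 6.92%) of those lacking them. Its share over all thinned TP spinous cells, 7.15%, was like the 7.02% (3.68 to 11.9%) of Krt71-high cells. Con held 39 such cells, of which 1 had Sprr1b and 3 had Sprr1a, too few for a comparison. Cells of the same library share its free RNA and its depth, and these shares are a description.

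**Figure D3:**
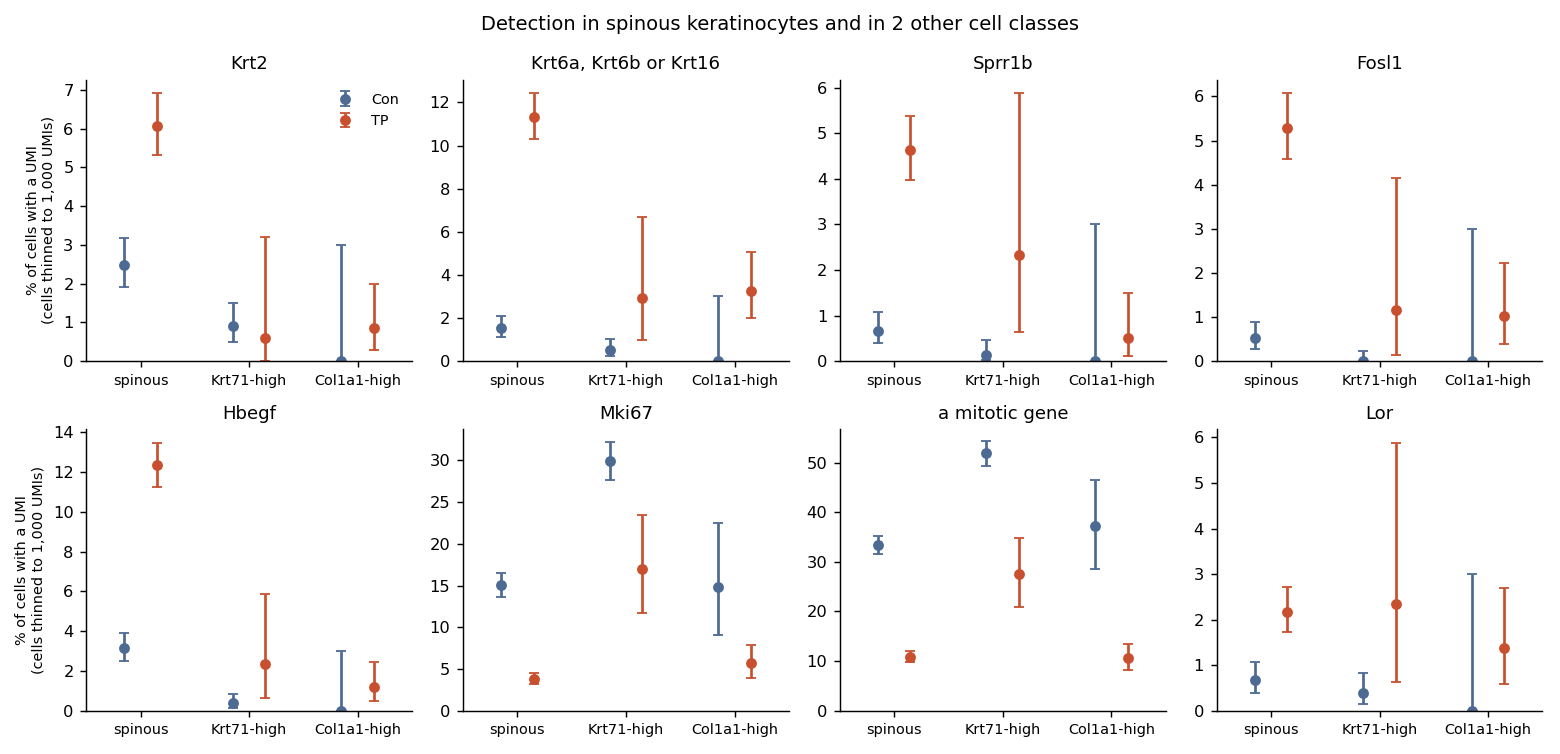
Share of cells with a UMI (y axis, percent, cells thinned to 1000 UMIs) in spinous cells, Krt71-high cells and Col1a1-high cells (x axis) of Con (blue) and TP (red), with Clopper-Pearson intervals at 95%. For Krt2, the Krt6a, Krt6b and Krt16 group, Sprr1b, Fosl1 and Hbegf the spinous share is the highest of the 3 TP classes, while for Mki67, mitotic genes and Lor another class has a higher share.

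Sprr1b and Sprr1a, whose promoters carry the AP-1 matches shown above, encode cornified envelope precursors that are cross-linked by transglutaminases. Sprr1b was at 5.79 CPM in Con and 87.5 in TP, 15.1 times as much (12.2 to 18.9). Its log2 ratio of 3.90 was 2.94 after thinning and 2.40 at a limit of 400 per 10000. Sprr1a was at 17.9 and 141 CPM, 7.88 times as much (6.98 to 8.94). Sprr1b was in 4.64% (3.97 to 5.38%) and Sprr1a in 5.94% (5.18 to 6.77%) of thinned TP spinous cells, and in 16.6% and 22.1% unthinned. Col1a1-high cells of TP gave 0.515% (0.106 to 1.499%) and 1.37% (0.595 to 2.69%), below the spinous shares beyond counting error. Krt71-high cells gave 2.34% for each (0.641 to 5.88%, 4 of 171 cells), whose interval overlaps the spinous ones. Unthinned, TP Krt71-high cells gave 8.475% for Sprr1b and 18.6% for Sprr1a, and TP Col1a1-high cells 5.34% and 6.01%. Granular cells gave 7.94% (5.49 to 11.02%) for Sprr1b and 6.95% (4.67 to 9.89%) for Sprr1a. Both genes were higher in TP in every Krt1 and Krt10 range. Sprr2a3, a further family member with near-identical copies, had 16 and 230 UMIs.

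Fosl1 (chr19:5447698-5455938), the AP-1 subunit Fra-1, was at 6.58 CPM in Con and 60.9 in TP, a ratio of 9.26 (7.58 to 11.4). After thinning it was found in 0.513% of Con and 5.29% of TP spinous cells, against 1.17% of TP Krt71-high and 1.03% of TP Col1a1-high cells. Unthinned, the spinous shares were 2.62% and 19.9%. All 20 immediate-early genes on the list had a log2 ratio above 0, with a median of 0.55, and 6 reached 2-fold: Fosl1, Atf3, Egr2, Nr4a1, Btg2 and Maff. The median was 0.24 among cells of 2000 to 6000 UMIs and 0.28 with the free RNA profile subtracted. Egr2 fell short of 2-fold after thinning, with a log2 ratio of 0.71, and Maff at a limit of 400 per 10000, with 0.56. Abundant members moved less, Fos from 1713 to 2026 CPM, Jun from 945 to 1136 and Egr1 from 573 to 754. Atf3, a stress-induced transcription factor, went from 343 to 779 CPM, yet 34.97% of thinned TP spinous cells had it, below the 38.6% of Krt71-high and 38.1% of Col1a1-high cells, where the Con shares were 6.07% and 5.79%. The spinous share in Con was 22.7%. Unthinned, the spinous shares were 51.7% and 66.4%. Atf3 thus differed between the libraries in classes outside the epidermis too.

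The EGF receptor family and its ligands had a median log2 ratio of 1.01 over 9 genes, the highest of the 27 pathway lists. With the free RNA profile subtracted it was 0.45, below cholesterol synthesis at 0.66 and the cornified envelope at 0.62. All 5 ligands with enough UMIs were at least 2-fold higher in TP. Ereg had the smallest ratio of these, and the list median is its value both with and without the subtraction. Hbegf, which signals through Egfr and Erbb4, was at 35.4 CPM in Con and 175 in TP, which is 4.95 times as much (4.53 to 5.41). It was present in 3.16% and 12.3% of thinned spinous cells against 2.34% of TP Krt71-high and 1.20% of TP Col1a1-high cells. The neighbouring classes of TP held it at least as often, 14.5% of cells with Krt5 and Krt14 high and 14.9% of granular cells. Unthinned, the spinous shares were 12.8% and 38.1%. Areg was at 15.9 and 51.5 CPM, with a ratio of 3.24 (2.83 to 3.72). It was in 2.60% (2.10 to 3.18%) of thinned TP spinous cells, above the 0.172% of Col1a1-high cells (0.00435 to 0.954%) but not beyond counting error above the 1.17% of Krt71-high cells (0.142 to 4.16%). In Con the shares were 1.38% in spinous and 1.73% in Krt71-high cells, and unthinned in TP 15.6% and 19.8%, so Areg was not told apart from background. Tgfa, with a ratio of 3.36 (2.53 to 4.53), Epgn, with 3.15 (2.55 to 3.92), and Ereg, with 2.03 (1.61 to 2.59), were all under 25 CPM. The receptors did not move with the ligands. Egfr went from 377 to 306 CPM, Erbb2 from 60.0 to 60.3 and Erbb3 from 65.6 to 67.2, and Lrig1, a negative regulator of the receptor, from 45.6 to 35.4. The median of the list was 0.14 among cells of 2000 to 6000 UMIs, where Hbegf kept a log2 ratio of 2.42, and -0.22 among members with at least 400 per 10000 of Krt1 and Krt10. Fewer genes had enough UMIs in those members, 5491 in place of 10382 over all genes. Hbegf was still at 26.6 CPM in Con and 195 in TP there, and Areg at 8.86 and 48.0. The median of -0.22 therefore does not show a fall of these ligands.

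**Figure D4:**
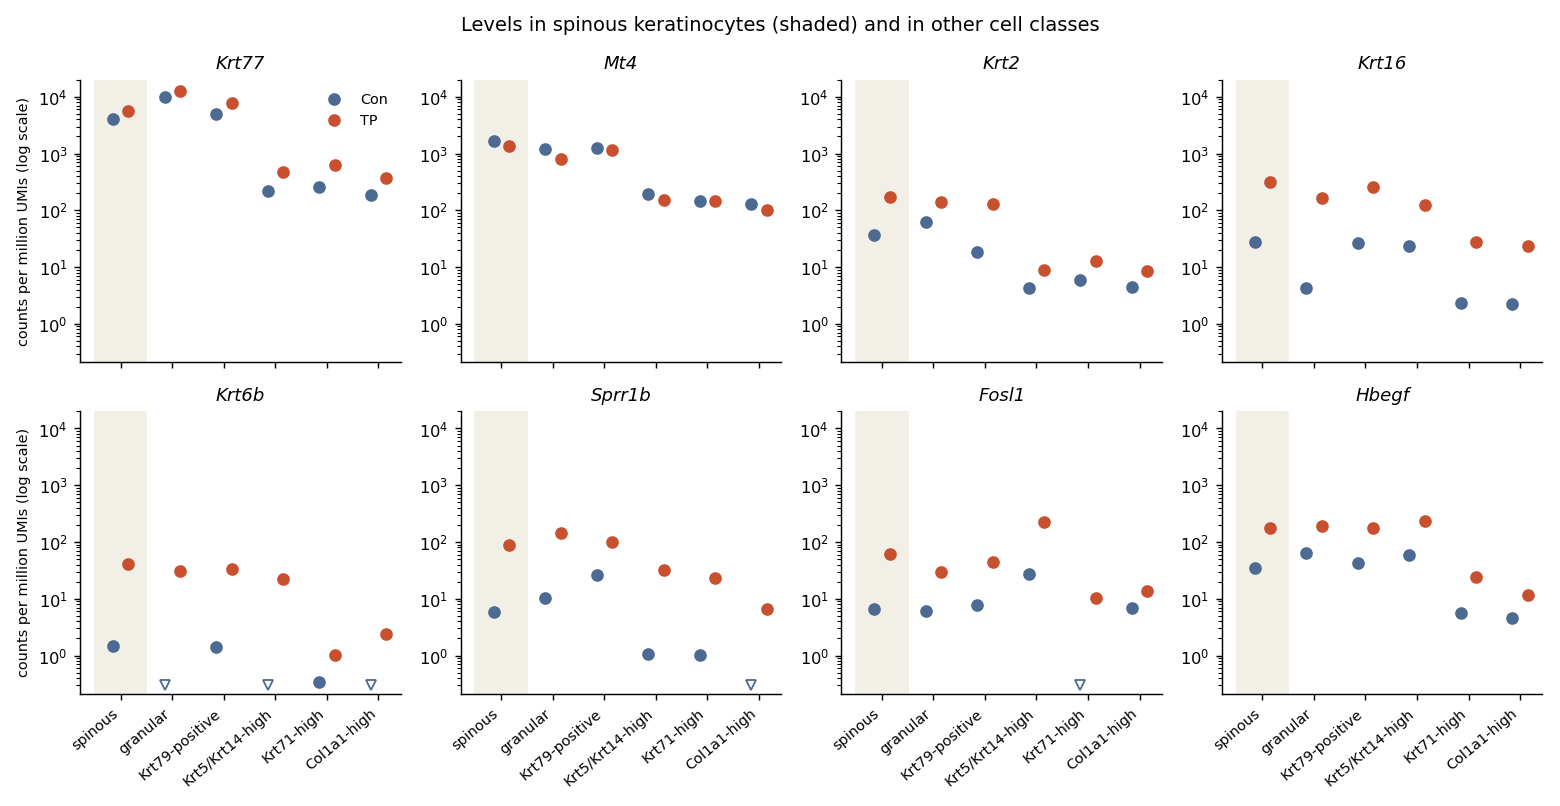
Levels of 8 genes in CPM (log axis) in spinous cells (shaded) and 5 other cell classes (x axis) of Con (blue) and TP (red), 1 library each. Open triangles mark levels at or under 0.3. Krt77, Mt4 and Krt2 are higher in Krt1- and Krt10-high classes than in the others, and Krt16, Krt6b, Sprr1b, Fosl1 and Hbegf have a higher value in TP in each class.

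These genes differed in the neighbouring epidermal classes too. Krt16 was at 23.6 CPM in Con and 124 in TP cells with Krt5 and Krt14 high, and at 4.32 and 168 in granular cells. Fosl1 was highest in the cells with Krt5 and Krt14 high, at 27.6 CPM in Con and 222 in TP, above the 6.58 and 60.9 of spinous cells. Of the 112 genes higher in spinous cells, 61 had at least 200 UMIs in granular cells and 39 of these were at least 2-fold higher there too. Of all 5679 genes tested in granular cells 1.18% were. For cells with Krt5 and Krt14 high the numbers were 53 and 41, against 0.952% of all genes there, and for Krt79-positive cells 87 and 66, against 1.45%. None of the genes was 2-fold lower in these 3 classes. The lower genes carried over less evenly: 16 of 159 were 2-fold lower in cells with Krt5 and Krt14 high (0.595% of all genes), 92 of 115 in Krt79-positive cells (3.08%) and 16 of 23 in granular cells (1.44%). All of these classes came from the same pair of libraries, so this is no independent evidence.

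Krt2 (chr15:101810689-101818956) had 564 UMIs in Con and 6380 in TP, a ratio of 4.61 (4.23 to 5.03). The top 10 Con cells held 35.8% of the Con UMIs, so this interval is too narrow as well. Krt2 was found in 2.49% of Con and 6.08% of TP spinous cells after thinning, against 0.895% and 0.585% of Krt71-high cells. Without thinning the spinous shares were 7.80% and 19.1%, and Krt71-high cells gave 1.67% in Con and 11.3% in TP. The difference was smaller once the Krt1 and Krt10 ranges were weighted alike, with a log2 ratio of 1.31 in place of 2.20, but Krt2 was higher in TP in all 4 ranges, from 30.2 against 53.5 CPM in the lowest, 38.8 against 102 and 27.6 against 177 in the next, to 152 against 391 in the highest. Krt77 had a log2 ratio of 0.46, and 0.10 with the ranges weighted alike.

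Metallothioneins, which bind zinc and copper, stood below Con in TP, none of them by 2-fold. Mt4 had a ratio of 0.817 (0.805 to 0.829), Mt1 went from 1014 to 609 CPM and Mt2 from 467 to 273, and all 8 genes of the list of metallothioneins and zinc transport were below 0, with a median log2 ratio of -0.51. Over all genes tested 33.2% were above 0 and the median was -0.13. Only the zinc exporter Slc30a1 passed 2-fold, from 89.4 to 42.9 CPM, at 0.264 and 0.446 times the level of the other cells. Mt4 was found in 66.4% of Con and 60.7% of TP thinned spinous cells, against 13.9% and 10.5% of Krt71-high cells. Unthinned, the spinous shares were 87.1% and 88.0%.

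Genes of the cornified envelope and late differentiation leaned to TP, 20 of 21 above 0 with a median log2 ratio of 0.77. Among cells of 2000 to 6000 UMIs the median was 0.43. Besides Sprr1a and Sprr1b, 5 were at least 2-fold higher: Lor, Asprv1, Cnfn, Calml3 and Nccrp1. Calml3, a calmodulin-like protein, stood at the limit with a log2 ratio of 1.00 and was under it, at 0.78 to 0.97, in 7 of the alternatives. Asprv1, the protease that processes filaggrin, went from 92.1 to 207 CPM, and Cnfn, or cornifelin, from 12.2 to 41.5. Ivl, the envelope protein involucrin, stood just under the limit at 66.2 and 124 CPM. The abundant spinous proteins moved little: Sbsn from 3714 to 5057 CPM, Krtdap from 9182 to 10480 and the plakin Ppl from 438 to 486. Lor, the envelope protein loricrin, was at 5.92 and 21.9 CPM, with a log2 ratio of -0.12 once the free RNA profile was subtracted. In TP it was in 2.18% of thinned spinous cells (1.72 to 2.71%), in 4 of 171 Krt71-high cells, or 2.34% (0.641 to 5.88%), and in 1.37% of Col1a1-high cells (0.595 to 2.69%), and in Con in 0.671% of spinous and 0.384% of Krt71-high cells. Both of the other TP classes had intervals that overlap the spinous one, so its share was not above background beyond counting error. Unthinned, the TP shares were 17.0%, 18.1% and 13.0%. Flg, a gene of the rule, was at 10.3 and 25.1 CPM in cells chosen for its near absence. Another 21 genes of this list, mostly Lce genes, had fewer than 200 UMIs.

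Desmosome genes, which hold spinous cells together, stayed within 2-fold but for Dsg2, a cadherin of the lower layers and follicle, at 25.9 and 11.7 CPM. Dsp, the linker to the keratin filaments, was at 3484 and 4072 CPM, Dsg1a at 894 and 1081, and Perp, a desmosomal membrane protein, at 2505 and 3696. The median log2 ratio over 12 genes was 0.25. None of 16 adherens and tight junction genes and none of 6 gap junction genes passed 2-fold.

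Of the barrier lipid enzymes 23 of 25 were above 0 with a median of 0.28, and only Alox12b, a lipoxygenase of the ceramide barrier, passed 2-fold, from 10.7 to 24.8 CPM. In cholesterol and fatty acid synthesis 18 of 21 were above 0, with a median of 0.53. That median was 0.22 after thinning and 0.27 with each cell weighted alike. Msmo1, a demethylase of the sterol pathway, went from 78.6 to 181 CPM, and Hmgcs1, an early enzyme of the pathway, from 275 to 397. Of 24 proteases and inhibitors, Klk7, which cleaves corneodesmosomes, was the only gene to pass 2-fold, from 70.8 to 175 CPM.

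Several genes near 2-fold passed it under some settings only. With the free RNA profile subtracted, Ereg (log2 ratio of 0.45), Asprv1 (0.84), Alox12b (0.90), Klk7 (0.92), Atf3 (0.95), Il1f9 (0.74) and Dsg2 (-0.92) did not reach it. With the Krt1 and Krt10 ranges given the Con proportions in both libraries, Ereg (0.90), Asprv1 (0.92), Alox12b (0.88), Calml3 (0.93), Il1f9 (0.85), Krt15 (-0.47), Dsg2 (-0.70), Slc30a1 (-0.77), Aldh1a3 (-0.56) and Ccl27a (-0.97) did not, nor did Krt71 and the cell cycle genes Top2a, Ccnb2 and Cenpf. At a limit of 400 per 10000, Cnfn (0.94), Nccrp1 (0.76), Alox12b (0.91), Il1f9 (0.90), Krt15 (-0.67), Dsg2 (-0.35) and Ccl27a (-0.56) fell short, and at 200 Asprv1 (0.99), Alox12b (0.79), Ereg (0.76), Krt15 (-0.81), Dsg2 (-0.82), Slc30a1 (-0.91) and Top2a (-0.98). Among cells of 2000 to 6000 UMIs Ereg (0.52), Klk7 (0.68), Id1 (0.91) and Defb6 (0.97) did, and after thinning Krt15 (-0.78). Calls of Krt15, Dsg2, Slc30a1, Il1f9, Ereg and Id1 were also lost under at least 1 of the remaining settings.

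**Figure D5:**
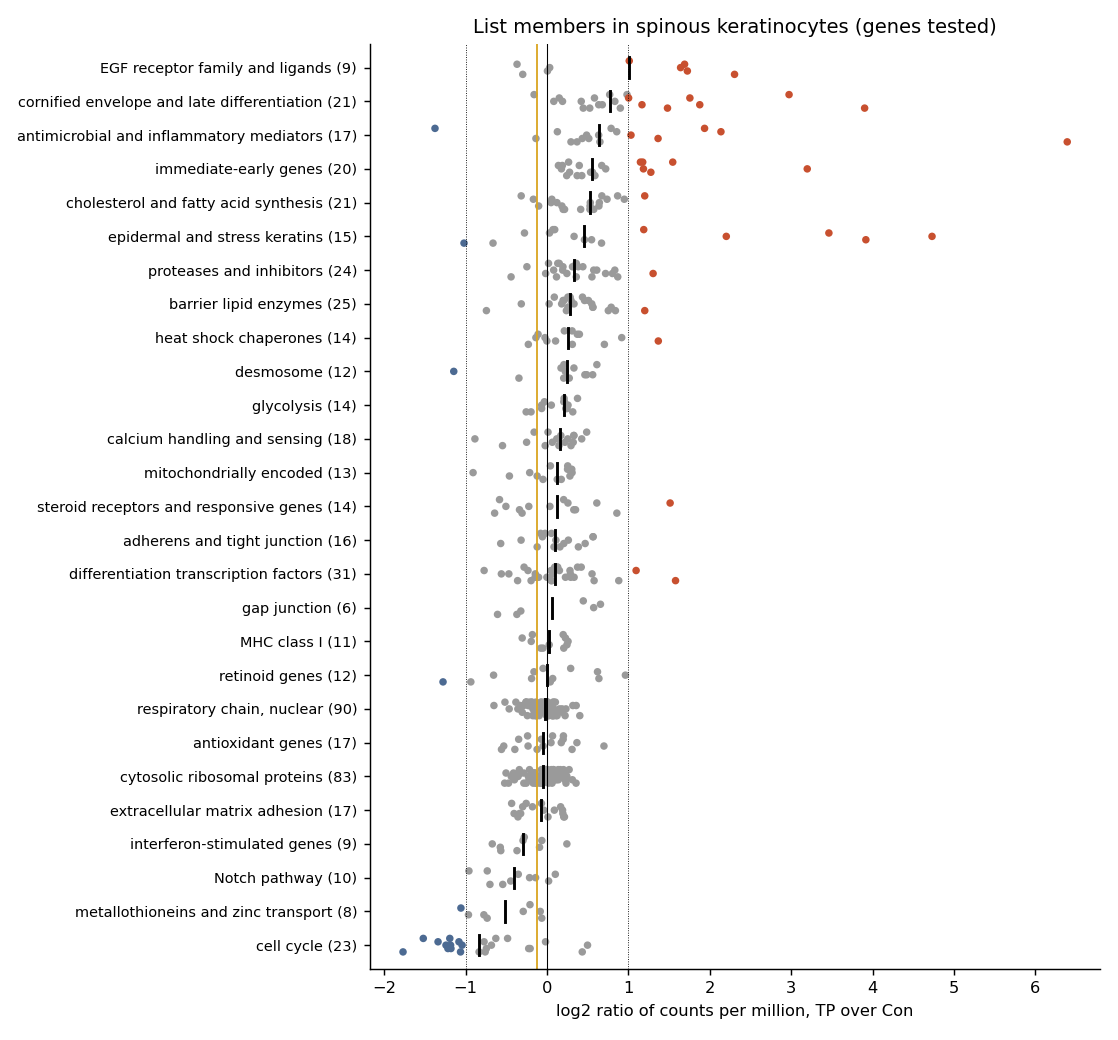
Log2 ratio of TP over Con (x axis) for the members of 27 gene lists in spinous cells, each point a gene with at least 200 UMIs and the number tested in brackets. Black bars are list medians, the yellow line is the median of all genes (-0.13), and dotted lines mark 2-fold. EGF family genes have the highest median (1.01) and cell cycle genes the lowest (-0.83).

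Antimicrobial and inflammatory genes differed in a few members. Of 17 tested, 5 were at least 2-fold higher and 1 lower, with a median log2 ratio of 0.63 that does not depend on the value given to Cxcl2. Stfa1 and Stfa3, stefins that inhibit cathepsins, had ratios of 4.43 (3.66 to 5.42) and 3.84 (3.33 to 4.45), and the related Cstdc5 went from 19.7 to 171 CPM, a ratio of 8.67 (7.72 to 9.77). Stefin genes have near-identical copies, so the counts of single members are uncertain. Il1f9, the cytokine IL-36 gamma, went from 7.89 to 16.2 CPM and Defb6, a beta-defensin, from 18.2 to 47.0. Ccl27a, the chemokine of keratinocytes that draws T cells to skin, was the lower gene, from 76.7 to 29.5 CPM, a ratio of 0.385 (0.354 to 0.419). S100a8 and S100a9, which often accompany Krt6 and Krt16, had fewer than 200 UMIs. None of 9 interferon-stimulated genes and none of 11 class I antigen presentation genes passed 2-fold.

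Steroid receptors and their responsive genes bear on the treatment. The glucocorticoid receptor Nr3c1 was at 131 CPM in Con and 103 in TP spinous cells. Fkbp5, a chaperone induced by androgens and glucocorticoids, was the only gene of 14 to pass 2-fold, from 13.3 to 38.3 CPM, a ratio of 2.87 (2.47 to 3.33). Its log2 ratio of 1.51 was 0.97 after thinning before the rule, which takes another set of cells, and 2.46 with the free RNA profile subtracted. It was found in 1.94% of Con and 4.10% of TP thinned spinous cells, against 1.53% and 1.17% of Krt71-high and 9.92% and 9.62% of Col1a1-high cells. Unthinned, the spinous shares were 6.56% and 22.8%. Cells with Krt5 and Krt14 high were at 12.5 and 32.7 CPM. The other responsive genes did not share a direction: Zbtb16 went from 68.3 to 124 CPM and Klf9 from 50.6 to 77.5, while Tsc22d3 stood at 96.0 and 111, Sgk1 at 35.8 and 30.7 and Ddit4 at 35.8 and 23.9.

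Transcription factors of epidermal differentiation mostly stayed within 2-fold. Trp63, the factor that maintains stratified epithelium, was at 758 and 786 CPM, Klf4, which drives barrier formation, at 464 and 680, and Grhl3 at 47.0 and 59.3. Of 31 tested, Ehf, an ETS factor of epithelia, went from 7.89 to 23.7 CPM and Id1, an inhibitor of helix-loop-helix factors, from 64.0 to 137, and none was 2-fold lower. Neither reached 2-fold at a limit of 400 per 10000, with log2 ratios of 0.55 and 0.84, and Id1 also fell short after thinning, at 0.83. The Notch pathway, which starts spinous differentiation, had no gene past 2-fold among 10 and a median log2 ratio of -0.40, or -0.01 with the free RNA profile subtracted. Notch1 went from 147 to 90.5 CPM, Hes1 from 129 to 94.6 and Notch3 from 137 to 124. In the retinoid list only Aldh1a3 passed 2-fold, from 10.9 to 4.48 CPM.

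Cell cycle genes had the lowest median of the pathway lists before subtraction of the background, a log2 ratio of -0.83, with 11 of 23 at least 2-fold lower and none higher. Mki67 went from 169 to 49.6 CPM, Top2a from 149 to 64.1 and Ccnb2 from 21.8 to 7.58, whereas the cell cycle inhibitor Cdkn1a went from 509 to 688. The same genes stood as high in classes outside the epidermis. Any of 8 mitotic genes was found in 33.4% of Con and 10.9% of TP thinned spinous cells, and in 37.2% of Con and 10.6% of TP Col1a1-high cells. Neither spinous share stood above that of Col1a1-high cells beyond counting error. Krt71-high cells gave 51.9% and 27.5%. Both of these classes can hold cycling cells of their own, so their shares do not measure free RNA alone. Unthinned, the spinous shares were 73.3% and 47.3%. Mki67 in spinous cells was 0.298 times its level in other cells in Con and 0.177 times in TP. With the Krt1 and Krt10 ranges weighted alike the median was -0.55 with 1 gene at least 2-fold lower, and with the background profile subtracted it was -0.16 over 14 genes, where Top2a and Cenpf turned to log2 ratios of 1.35 and 1.08. No difference in cycling is read from these values.

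Basal markers divided. Krt15 was at the 2-fold limit and went from 682 to 336 CPM, a ratio of 0.493 (0.481 to 0.506), which moved within 2-fold, to a log2 ratio of -0.47, with the ranges weighted alike. Krt14 was slightly higher in TP in sum and higher in TP in each of the 4 ranges, 3126 against 2073 CPM in the lowest and 716 against 434 in the highest. It was found in 40.9% of Con and 44.2% of TP thinned spinous cells. The shares also differed in Krt71-high cells, 14.5% and 19.9%, and in Col1a1-high cells, 13.2% and 24.4%. With the free RNA profile subtracted the median log2 ratio of the 6 basal markers was -0.62 in place of -0.30. The part of free RNA in the Krt14 difference was not tested. None of 17 genes of adhesion to the extracellular matrix passed 2-fold.

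The lower genes lay mostly below the level of other cells. Of the 308, 293 were below the level of the other cells in Con spinous cells and 306 in TP (95.1% and 99.4%), against 69.0% and 67.1% of all genes tested. Of the 112 higher genes, 51 and 63 were below it (45.5% and 56.2%). The 15 largest falls held the melanocyte genes Kit, Oca2, Tyr and Tyrp1, the growth factor Fgf10, the transcription factor Runx2, the leptin receptor Lepr and the cadherin Cdh6. All 15 stood at 0.0755 to 0.426 times the level of the other cells. Cdh6 went from 274 to 67.7 CPM, and 14.2% of Con thinned spinous cells had a UMI of it, against 21.1% of Krt71-high and 14.9% of Col1a1-high cells. Unthinned, the spinous share in Con was 35.8%. Summed melanocyte markers went from 84.1 to 22.8 CPM with 3 of 3 at least 2-fold lower, papilla markers from 51.0 to 13.2, and hair shaft and inner root sheath markers from 1710 to 994 with 2 of 8. The hair markers depend on the treatment of the background. All 8 were at least 2-fold higher in TP with the free RNA profile subtracted, with a median log2 ratio of 1.95. The subtracted share was itself set from hair keratin and keratin-associated protein genes, so no direction is read from this. Without members carrying other cell types' markers, a filter that uses these same genes, 6 were lower, with a median of -1.21. After subtraction of the free RNA profile 42 of the 308 kept at least 200 UMIs and a value in both libraries, and 22 of these were still 2-fold lower.

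Fibroblast markers went the other way, from a summed 93.6 to 405 CPM, with 4 of 5 tested genes at least 2-fold higher. Col1a1 was at 10.7 CPM in Con and 105 in TP spinous cells, and in TP it stood at 327 CPM in the lowest Krt1 and Krt10 range against 38.3 to 53.1 in the others. It was found in 5.02% of Con and 31.0% of TP spinous cells before thinning, and the top 10 TP cells held 59.1% of its UMIs there. Members with at least 50 per 10000 UMIs of markers of other cell types numbered 311 (11.7%) in Con and 252 (6.66%) in TP. Without them Col1a1, itself one of those markers, had a log2 ratio of 2.21 in place of 3.28, while Krt16, Sprr1b, Fosl1 and Hbegf kept log2 ratios of 3.42, 3.83, 3.27 and 2.33. Endothelial markers summed to 2.10 and 3.24 CPM and Schwann markers to 2.17 and 2.06. Immune markers summed to 38.3 and 54.0 CPM, with Lyz2 and C1qa at least 2-fold higher. Smooth muscle markers summed to 9.21 and 11.4 CPM and red blood cell markers to 12.4 and 21.3, with none past 2-fold. The part of these cells in the results was not tested beyond leaving out the members that carry their markers.

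Several of the 15 largest rises carried few UMIs. Igfbp6 had 2 UMIs in Con and 213 in TP, a ratio of 43.4 (11.9 to 361), Aspn 13 and 210 and Tnfaip6 15 and 213, and all of these stood at 884 to 1241 CPM in TP Col1a1-high cells. Cxcl2, a neutrophil chemokine, had no UMI in Con, where 3 counts would be 0.197 CPM, and 205 in TP, at least 27.8-fold higher. Its TP UMIs came from 51 cells, the top 10 held 79.5% of them, and the level was 0.140 times that of the other cells. Ptgs2, the inducible cyclooxygenase, had 19 and 309 UMIs, a ratio of 6.63 (4.17 to 11.2), and Ifi202b 84 and 1072, a ratio of 5.20 (4.16 to 6.57). Gpc5, a glypican, had 9 and 227. These values moved with the settings: the log2 ratio of Ptgs2, 2.66, was 1.75 among cells of 2000 to 6000 UMIs and 4.96 after thinning, and at a limit of 400 per 10000 Ifi202b (0.63) and Tnfaip6 (0.59) were short of 2-fold.

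The medians of housekeeping groups moved with the depth of the cells compared. None of 83 ribosomal protein genes, 90 nuclear respiratory chain genes, 14 glycolysis genes or 17 antioxidant genes passed 2-fold, with medians between -0.05 and 0.21. Mitochondrially encoded genes had a median of 0.13. Among cells of 2000 to 6000 UMIs the medians were -0.53 for ribosomal proteins, -0.38 for the nuclear respiratory chain, -0.04 for glycolysis and 0.63 for mitochondrially encoded genes. Heat shock chaperones had a median of 0.26 in all members and -0.25 in those cells, so no direction is given for them. Dnajb1, a cofactor of Hsp70, was at 130 and 335 CPM and Hspa1a at 181 and 155. None of 18 calcium handling genes and none of 17 extracellular matrix adhesion genes passed 2-fold.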

How the data were processed

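Dorsal skin of 15 mice per group was pooled, dissociated with collagenase and run on droplet 3′ single-cell libraries. Per the submitters' processing notes, Cell Ranger 8.0.1 and the mm10 build were used, and the matrices deposited by the authors hold raw UMI counts, a whole number for each gene in each barcode, with no normalization. Both libraries listed 32285 genes. Samples were grouped by their titles. The cell limits of the authors' methods were applied here and doublets were removed only in an alternative, by the share of artificial doublets among each cell's neighbours, with artificial doublets at 25% of the merged data, 30 components and 7.5% of barcodes removed per library.

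UMIs of the spinous cells were summed per library and scaled to counts per 1000000 UMIs. Log2 ratios used a pseudocount of 1 UMI per library, genes needed 200 UMIs in both libraries together, and a gene counted as higher or lower at 2-fold. Intervals at 95% are exact Poisson, Clopper-Pearson or exact conditional binomial, with a log-normal interval for the ratio of shares. Those of UMI ratios treat UMIs as independent and are too narrow where few cells hold most UMIs of a gene. With 1 library per group no test or p-value was computed. Shares of cells with a UMI were taken after thinning each cell to 1000 UMIs, in 2532 Con and 3537 TP members of the class. Log2 ratios and gene counts after thinning used cells thinned before the rule was applied, which chose 2644 in Con and 4248 in TP. The other classes needed 100 per 10000 of Krt5 and Krt14 with Krt1 and Krt10 under 50, or 50 per 10000 of Krt71 or Col1a1 outside the Krt1 and Krt10 limit. The members, lists and markers were chosen with earlier results of these data known. The genes named are those of the rule, markers and lists, the 15 largest rises and falls without unnamed gene models and markers of other cell types, and the 20 genes highest in spinous cells over the rest. Gene positions are from RefSeq for GRCm38.p6, matched by symbol for 628 of 642 genes. Python 3.11.15, numpy 2.4.6, scipy 1.17.1, pandas 2.3.3, scikit-learn 1.9.0 and edgeR 4.0.16 (TMM factors only, R 4.3.3) were used. The ratios and intervals were tested on simulated counts with independent UMIs, which does not cover genes whose UMIs lie in few cells. Alternatives covered the Krt1 and Krt10 limit, depth, doublets, the mitochondrial limit, Krt79, scaling, weighting, background, the UMI minimum and the pseudocount. Leaving out members with markers of other cell types was added after the data were seen. Values of some list members are not reported here.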

Additional observations from a re-analysis of the deposited data

How the results depend on the processing

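No paired analysis was possible because each group is 1 library, and for the same reason no replicate could be left out. The ratio of spinous shares, 2.99, was 5.05 at a limit of 200 per 10000 and 16.3 at 400, 2.11 among cells of 2000 to 6000 UMIs, 2.48 at a mitochondrial limit of 5%, 3.67 without the Krt79 condition and 3.16 without members carrying other cell types' markers, an alternative chosen after seeing the data. It reversed to 0.762 among cells with Krt1 and Krt10 over the limit and to 0.899 per cell with Krt5 and Krt14 high. Under alternatives added after seeing the data the last value turned to 1.52 and 4.89 at limits of 200 and 400, 1.01 after thinning and 1.10 without the Krt79 condition on spinous cells (0.978 without it in both classes), and was 0.794 to 0.95 in the others, while the former stayed between 0.718 and 0.934. The count of higher genes, 112, was 73 at a limit of 400, 41 after thinning to 1000 UMIs before the rule, 46 among cells of 2000 to 6000 UMIs, 169 with the TMM factor, 179 with the background profile subtracted, 221 at a minimum of 50 UMIs and 765 with none. The count of lower genes, 308, was 103 and 30 at the limits of 200 and 400, 49 after thinning, 100 among cells of 2000 to 6000 UMIs, 202 with doublets removed, 187 with the TMM factor, 73 with Con range proportions, 69 with the background subtracted, 691 at 50 UMIs and 3760 with no minimum. Smaller sets of cells leave fewer genes tested, 5491 at 400 and 5408 after thinning. Subtracting the background turned the log2 ratios of Prag1 (1.56), Lor (-0.12), Top2a (1.35), Ccnb1 (0.16), Cenpf (1.08), Krt25 (2.66) and Krt71 (1.20), and the limit of 400 those of Lum (-0.05), Lyz2 (-0.22) and the median of the EGF list (-0.22). The cause was not tested. At the limit of 400 Hbegf and Areg of the EGF list stayed higher in TP, and fewer genes had enough UMIs. Under subtraction 421 genes fell to 0 in a library and had no value. Of 999 comparisons of named genes with an alternative 602 stayed within counting error, 388 moved in size and 9 reversed, and of 320 comparisons of list medians 33 changed sign, most of them medians near 0. Heat shock (0.26 to -0.25) and glycolysis (0.21 to -0.04) did so among cells of 2000 to 6000 UMIs and interferon-stimulated genes (-0.29 to 0.13) after thinning.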
